A study of Homo sapiens with 39 samples.

Results

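The 54 genes described here encode ribosome biogenesis factors, most of them nucleolar or nuclear proteins. Such factors transcribe ribosomal RNA (rRNA), modify and cut it, and assemble it with ribosomal proteins. The genes were chosen by name, from a list of nucleolar and ribosome assembly genes, and not by a cut on measured values. Earlier results of these data were known when the list was made. All 54 symbols matched 1 identifier each among the 57773 of the deposited count table, and all 54 were among the 14460 genes that passed the filter on low counts, with mean levels of 29 to 2190 CPM, the counts scaled to a common library size. By role, 5 act in transcription by RNA polymerase I (Pol I), 4 are multifunctional nucleolar proteins, 5 belong to small nucleolar ribonucleoproteins (snoRNPs) or help to build them, 19 act in assembly of the small ribosomal subunit and 21 in assembly of the large subunit.

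RNA was sequenced from JJN3, an established human multiple myeloma cell line, which stands for malignant plasma cells. Cells received GSK-J4, a cell-permeable inhibitor of the KDM6 histone H3 lysine demethylases, or ZnSO4, a soluble zinc salt, or the solvent DMSO as the control, and were taken at 1, 3, 6 and 24 h after the start, beside untreated cells at T0. These make 13 groups of 3 libraries, 39 in all, of 1 cell line without a genetic change. No label states a dose, so the 2 compounds are set side by side without a matched dose. Nothing in the labels says that the 3 libraries of a group came from separate cultures, and p-values then reflect only library-to-library spread, possibly of technical origin.

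Library totals ranged from 4347745 to 10695671 counts (median 6010529), and the 54 genes held 1.13% to 1.63% of them. A count of 3 equals 0.28 to 0.69 CPM, far under every level given below. Of 9 plasma cell markers all were detected in every library, among them IRF4 (467 to 1380 CPM) and SDC1 (111 to 274 CPM). The T cell, B cell and myeloid markers reached at most 6.01 CPM (MS4A1). Among the epithelial markers EPCAM lay at 30.8 to 62.6 CPM, KRT8 at 4.29 to 16.3 CPM and KRT18 at 0.164 to 2.23 CPM. Among the stromal markers COL1A1 lay at 3.6 to 32.7 CPM, COL1A2 at 1.06 to 33.2 CPM and DCN at 0 to 2.82 CPM. The part of these markers in the results was not tested. Mitochondrially encoded RNA took 4.38% to 5.54% of counts in the 24 h libraries of all 3 treatments, against 2.92% to 3.9% at T0 and up to 6 h.

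A cell makes ribosomes in the nucleolus. Pol I copies the ribosomal DNA into 1 long precursor, snoRNPs guide its methylation and pseudouridylation, and separate sets of factors cut, fold and export the small and the large subunit. Dividing and protein-secreting cells, such as myeloma cells, depend on this supply, and the transcription factor MYC is known to bind and raise many of these genes through E-boxes, of which CACGTG is the canonical form.

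The promoters of the members are shown because the genes moved together and CACGTG was common near their starts. RefSeq (GRCh38.p14) gave a promoter window of 300 bases, 250 before to 50 after the transcription start, for 47 of the 54 genes. CACGTG, which reads the same on both strands, lay in 19 of these 47 (40.4%), against 12.7% of the 9978 tested genes with an entry and 8.77% of all 27305 genes of the table. Where a gene had several starts, any window counted. In the last 100 bases of the window, a range chosen after the positions had been seen, 38.3% of the members held it, against 5.39% of the tested genes. Below are 60 bases before to 30 after the start of 8 members that hold the motif there, in capitals, and of 4 that the results turn on and that hold none in their window.
RRP9: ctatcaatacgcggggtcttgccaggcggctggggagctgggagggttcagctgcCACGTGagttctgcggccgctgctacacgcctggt
UTP20: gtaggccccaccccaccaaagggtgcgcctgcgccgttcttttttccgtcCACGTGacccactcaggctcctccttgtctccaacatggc
NAT10: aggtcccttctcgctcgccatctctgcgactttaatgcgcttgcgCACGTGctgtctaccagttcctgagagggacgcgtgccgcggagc
WDR43: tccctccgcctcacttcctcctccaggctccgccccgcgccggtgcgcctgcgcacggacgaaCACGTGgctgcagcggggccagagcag
GNL3: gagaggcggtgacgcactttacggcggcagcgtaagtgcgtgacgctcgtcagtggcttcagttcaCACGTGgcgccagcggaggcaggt
FBL: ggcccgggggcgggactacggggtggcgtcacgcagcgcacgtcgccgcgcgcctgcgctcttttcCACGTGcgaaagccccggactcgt
PES1: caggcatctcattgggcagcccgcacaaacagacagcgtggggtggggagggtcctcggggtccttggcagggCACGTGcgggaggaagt
NOC3L: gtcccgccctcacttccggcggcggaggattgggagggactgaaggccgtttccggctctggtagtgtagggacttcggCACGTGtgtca
NCL: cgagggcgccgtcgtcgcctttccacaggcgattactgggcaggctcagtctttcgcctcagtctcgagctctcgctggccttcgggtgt
NPM1: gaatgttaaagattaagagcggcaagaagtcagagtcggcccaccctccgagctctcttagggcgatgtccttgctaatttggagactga
NOP56: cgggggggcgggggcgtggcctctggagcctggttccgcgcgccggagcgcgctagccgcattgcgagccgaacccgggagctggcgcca
WDR74: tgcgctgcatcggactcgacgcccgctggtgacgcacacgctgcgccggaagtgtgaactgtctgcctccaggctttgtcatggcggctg
These windows lie, in the order printed, at chr3:51941875-51941964 (minus strand), chr12:101280045-101280134 (plus), chr11:34105569-34105658 (plus), chr2:28894607-28894696 (plus), chr3:52685972-52686061 (plus), chr19:39846350-39846439 (minus), chr22:30591881-30591970 (minus), chr10:94362910-94362999 (minus), chr2:231464455-231464544 (minus), chr5:171387056-171387145 (plus), chr20:2652572-2652661 (plus) and chr11:62839561-62839650 (minus). They cover the end of the promoter and the first bases of the transcript. DDX21, GNL3 and IMP4 each have a pair of listed starts and held the motif in the window of 1 of them, from which the bases of GNL3 are printed. By role the motif was in 9 of 18 small subunit genes, 7 of 17 large subunit genes, 2 of 4 multifunctional proteins, 1 of 3 snoRNP proteins and no Pol I gene of 5. It was also in 28 of 83 other ribosome biogenesis genes (33.7%) and in 4 of 63 cytosolic ribosomal protein genes (6.35%). RRP1B, RRS1, RRP12, DDX18, URB2, NOLC1 and NOP58 are named only. A match describes letters and is not evidence of binding.

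GSK-J4 lowered nearly the whole group, first clearly at 6 h. After 6 h, 49 of the 54 genes were lower in GSK-J4 than in DMSO and none was higher (edgeR quasi-likelihood test, adjusted p under 0.05), while 10.5% of all tested genes were called lower and 9.83% higher. The median log2 fold change of the 54 was -0.34, beside 0.011 over all tested genes. After 24 h, again 49 were lower and none higher, with a median of -0.44, beside 16.8% of all tested genes called lower, 15.2% higher and a median of 0.022. All 54 fold changes were below 0 at both times. In bulk RNA a fall can mean fewer cells that express a gene or less RNA per cell, which cannot be told apart. CPM are relative to a library total scaled by TMM factors, and are not amounts per cell.

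**Figure D1:**
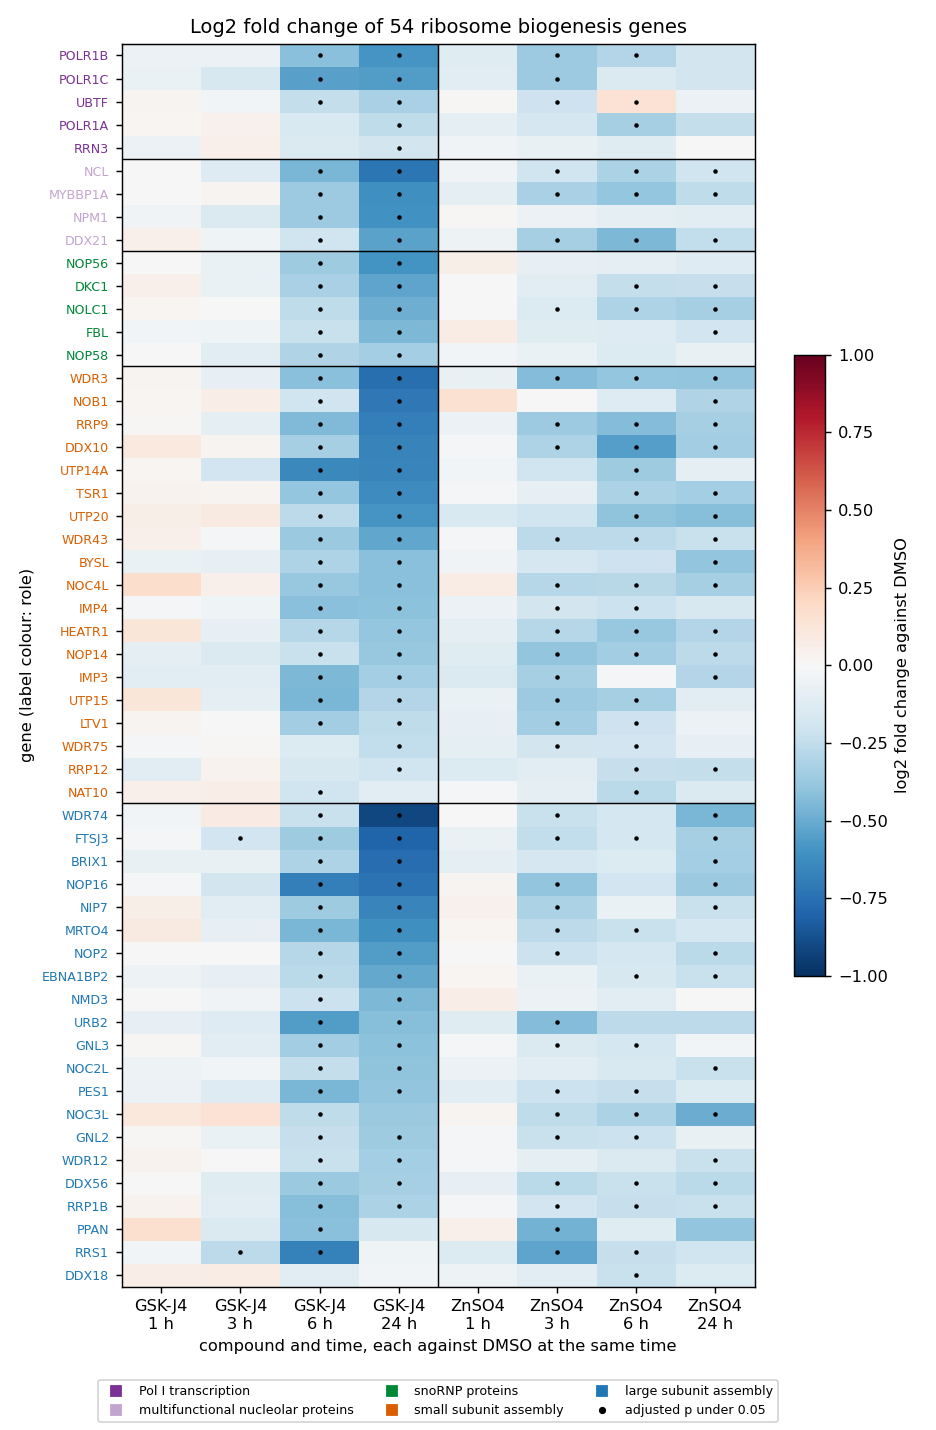
Log2 fold change of each of the 54 genes (rows, by role, then by the change at 24 h of GSK-J4) in GSK-J4 or ZnSO4 against DMSO at 1, 3, 6 and 24 h (columns); blue is lower than DMSO, and a dot marks adjusted p under 0.05. Dots fill 49 of 54 rows for GSK-J4 at 6 h and at 24 h, and 34, 35 and 31 rows for ZnSO4 at 3, 6 and 24 h, with UBTF at 6 h the only called rise.

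The earlier times of GSK-J4 showed little. After 1 h none of the 54 was called by edgeR or by DESeq2, beside 0.104% of all tested genes called by edgeR. At an unadjusted p under 0.05 (edgeR) there was 1 of the 54, beside 575 of the 14460 tested genes. After 3 h RRS1 and FTSJ3 were lower, 2 of 54, beside 0.927% of all tested genes called lower and 1.45% higher. RRS1, which helps to bring the 5S ribonucleoprotein into the large subunit, fell by 0.26 ± 0.06 on the log2 scale (adjusted p = 0.0092). FTSJ3, an rRNA methyltransferase of the early large subunit, fell by 0.195 ± 0.055 (adjusted p = 0.034). Neither call held under every alternative: without replicate 1 of DMSO at 3 h, or without replicate 3 of GSK-J4 at 3 h, no member was called, and without any other 1 of these 6 libraries 1 was. A fit of the 3 h groups alone called 12 lower, beside 577 of its 13230 tested genes. In the main fit (edgeR) 11 of the 54 had an unadjusted p under 0.05, beside 1897 of the 14460 tested genes.

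The step between 3 h and 6 h was itself tested as a difference of effects. The effect of GSK-J4 was more negative at 6 h than at 3 h in 26 of the 54 genes and less negative in none, beside 1.92% of all tested genes more negative and 1.75% less negative. NOP16, a large subunit assembly factor, had the largest such difference, -0.50 ± 0.11 (SE; adjusted p = 0.0018), ahead of UTP14A (-0.46 ± 0.10, adjusted p = 0.0028) and NOC4L (-0.43 ± 0.13, adjusted p = 0.039), both of the small subunit. The call of NOC4L was lost without any single library of these groups except replicate 1 or 2 of DMSO at 6 h. Without replicate 3 of DMSO at 6 h, which stood apart from its 2 companions, 17 genes were called in place of 26.

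Transcription by Pol I was represented by 2 of its subunits, by a subunit that it shares with Pol III, and by the factors RRN3 and UBTF. POLR1B, the second-largest Pol I subunit, measured 86.4, 82.8 and 86.9 CPM after 6 h of GSK-J4, against 112, 119 and 110 CPM in DMSO. At 24 h the values were 42.4, 42.5 and 47.1 CPM in GSK-J4, against 63.8, 68.5 and 67 CPM in DMSO. At both times every GSK-J4 library lay under every DMSO library, by -0.42 ± 0.07 (adjusted p = 1.6e-06) and -0.59 ± 0.08 on the log2 scale (adjusted p = 6.4e-09). POLR1C, shared by Pol I and Pol III, also fell at both times (-0.54 and -0.56), as did UBTF, which binds along active ribosomal DNA (-0.24 and -0.325). POLR1A, the largest subunit, and RRN3, which links Pol I to its promoter, had changes of -0.15 and -0.14 at 6 h that were not called (adjusted p = 0.2 and 0.1). Both were called lower at 24 h (-0.25 and -0.18). All 5 were therefore lower at 24 h, with the smallest median of the 5 roles at both times (-0.24 and -0.325). In 20 of the 54 genes, POLR1C, MYBBP1A, WDR3, UTP15, TSR1, HEATR1, IMP3, IMP4, NOP16, WDR12, PES1, GNL2, GNL3, NIP7, NOC2L, FTSJ3, EBNA1BP2, BRIX1, MRTO4 and NMD3, exons overlap those of an antisense coding gene. The strand setting of the counts is not given, so reads of such a pair cannot be told apart. Over all libraries the antisense genes had more counts than the member for POLR1C (97722 against 30983), FTSJ3 (59555 against 38116) and MRTO4 (60307 against 46229), and fewer for the other 17, such as BRIX1 (25088 against 46546), NOP16 (7630 against 21203) and IMP3 (1949 against 28690).

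The 4 multifunctional nucleolar proteins all fell at 6 h and at 24 h, with medians of -0.36 and -0.61. NCL encodes nucleolin, a major nucleolar RNA-binding protein. It measured 1577, 1583 and 1548 CPM after 6 h of GSK-J4, against 2139, 2115 and 2210 CPM in DMSO. Later, at 24 h, NCL measured 1924, 1988 and 1899 CPM in GSK-J4, against 3168, 3226 and 3188 CPM in DMSO. The groups did not overlap at either time, and the changes were -0.46 ± 0.05 (adjusted p = 1.4e-11) and -0.72 ± 0.05 (adjusted p = 2.5e-19), the second being 0.606 times the DMSO level. In CPM with TMM factors the GSK-J4 libraries at 24 h lay above those at 6 h, and the DMSO libraries at 24 h lay above those at 6 h.

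NPM1 encodes nucleophosmin, a histone and ribosome chaperone of the nucleolus. It measured 1369, 1366 and 1329 CPM after 6 h of GSK-J4, against 1709, 1740 and 1771 CPM in DMSO. At 24 h NPM1 measured 1677, 1680 and 1684 CPM in GSK-J4, against 2535, 2521 and 2623 CPM in DMSO. These are falls by 0.36 ± 0.05 and 0.61 ± 0.05 on the log2 scale (adjusted p = 4.6e-09 and 4e-17), without overlap. NPM1 has 45 annotated pseudogenes, which together received 24.3% as many counts, so its reads can be split. The pseudogenes moved alike, with 398 ± 2.27 CPM in GSK-J4 at 24 h, against 614 ± 21.4 CPM in DMSO (SD, n = 3). Pseudogenes of RRN3 received 13.7% as many counts as RRN3. DDX21, a helicase that acts in rRNA transcription and processing, fell by 0.20 at 6 h and by 0.54 at 24 h. MYBBP1A, a regulator of rRNA transcription, fell by 0.36 and by 0.61.

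**Figure D2:**
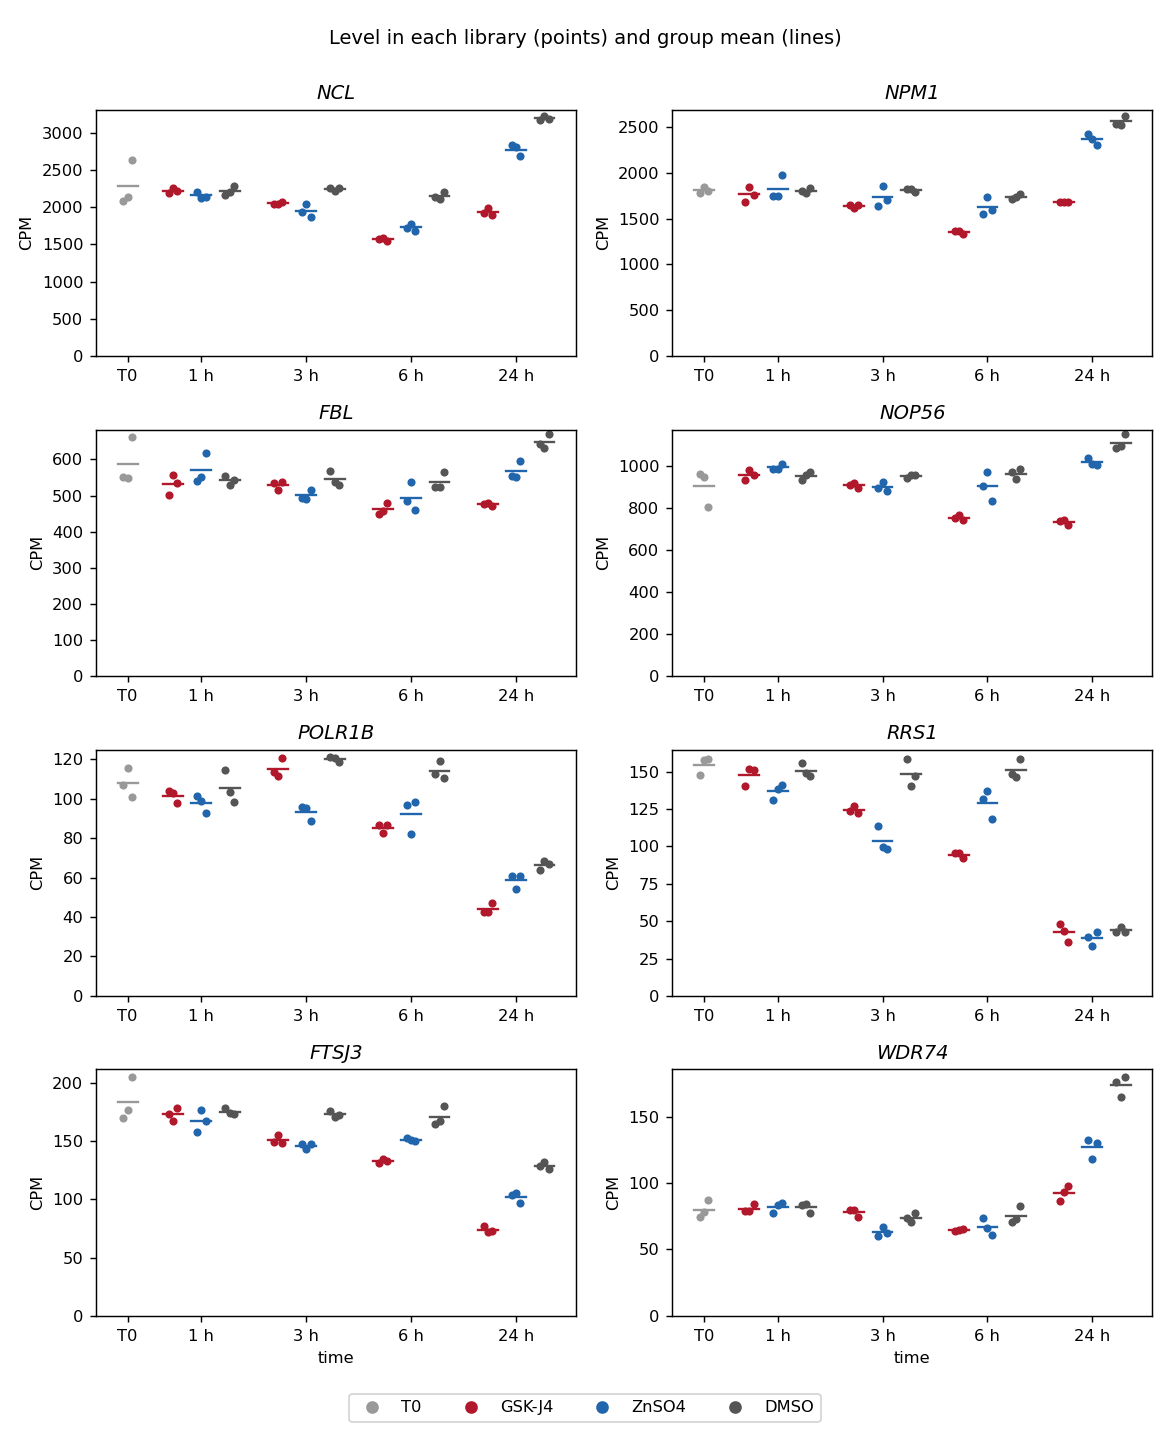
CPM in every library (points) and the mean of each group (lines) for 8 genes, over T0 and the 4 times, with GSK-J4 (red), ZnSO4 (blue) and DMSO (grey) side by side; each axis starts at 0. The 3 GSK-J4 libraries lie below the 3 DMSO libraries at 6 h in all 8 genes and at 24 h in all but RRS1, whose 24 h groups overlap. RRS1, FTSJ3 and WDR74 are shown because they were among the largest called falls against DMSO, so their separation is no independent result. The share of all tested genes without overlap was not counted.

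The 5 snoRNP genes all fell at both times as well. FBL encodes fibrillarin, the methyltransferase of box C/D snoRNPs. It measured 449, 458 and 479 CPM after 6 h of GSK-J4, against 522, 524 and 566 CPM in DMSO (-0.22 ± 0.06, adjusted p = 0.0027). After 24 h it measured 477, 480 and 471 CPM in GSK-J4, against 642, 633 and 672 CPM in DMSO (-0.45 ± 0.06, adjusted p = 2.2e-09). Fibrillarin RNA thus stood at nearly the same level in GSK-J4 at both times, below every DMSO library. NOP56, a scaffold protein of the same particles, measured 752, 766 and 740 CPM after 6 h of GSK-J4, against 968, 935 and 983 CPM in DMSO. After 24 h it measured 735, 743 and 720 CPM in GSK-J4, against 1084, 1094 and 1150 CPM in DMSO. The changes of NOP56 were -0.35 ± 0.05 and -0.60 ± 0.05 (adjusted p = 3.4e-08 and 6.8e-16). NOP58, the partner scaffold, had -0.30 and -0.34, DKC1, the pseudouridine synthase dyskerin, had -0.33 and -0.53, and NOLC1, a chaperone of snoRNPs, had -0.25 and -0.49, all called.

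Among the 19 small subunit genes, 17 fell at 6 h and 18 at 24 h, with medians of -0.35 and -0.42. UTP14A, a processome factor, was the third-largest fall at 6 h. It measured 55.5, 65.6 and 55.7 CPM in GSK-J4, against 88.1, 91.4 and 97.3 CPM in DMSO (-0.645 ± 0.075, adjusted p = 3.3e-10). At 24 h the largest falls of this role were those of WDR3 (-0.76), a processome protein, NOB1 (-0.72), the nuclease that releases mature 18S rRNA, and RRP9 (-0.69), a U3 snoRNP protein. DDX10 (-0.67), UTP14A (-0.66), TSR1 (-0.63), UTP20 (-0.59) and WDR43 (-0.52) followed, and the other 10 called genes lay between -0.42 and -0.20. RRP12 and WDR75 missed the threshold at 6 h (-0.16 and -0.14, adjusted p = 0.11 and 0.096) and passed it at 24 h. NAT10, which acetylates 18S rRNA, did the opposite, with -0.20 at 6 h and -0.12 at 24 h (adjusted p = 0.22).

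Among the 21 large subunit genes, 20 fell at 6 h and 17 at 24 h, with medians of -0.345 and -0.41. NOP16 had the largest fall of all 54 at 6 h, with 50.9, 52.7 and 46.2 CPM in GSK-J4, against 81.2, 80.9 and 79.4 CPM in DMSO (-0.68 ± 0.08, adjusted p = 3.3e-10). WDR74, which acts with an ATPase that remodels the early large subunit, had the largest fall at 24 h. It measured 86.5, 93.3 and 97.5 CPM in GSK-J4, against 177, 165 and 180 CPM in DMSO, 0.532 times the DMSO level (-0.91 ± 0.07, adjusted p = 7.2e-18). At 6 h the difference of WDR74 had been smaller, with 63.8, 64.9 and 65.3 CPM in GSK-J4, against 70.6, 72.7 and 82.6 CPM in DMSO (-0.22 ± 0.08, adjusted p = 0.027).

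FTSJ3 measured 131, 135 and 133 CPM after 6 h of GSK-J4, against 164, 167 and 180 CPM in DMSO (-0.36 ± 0.06, adjusted p = 1.4e-06). After 24 h it measured 76.9, 71.6 and 73.1 CPM in GSK-J4, against 129, 132 and 126 CPM in DMSO (-0.80 ± 0.06, adjusted p = 1.3e-16). In the main fit FTSJ3 was the only member called lower in GSK-J4 at 3, 6 and 24 h. Its call at 3 h was lost without any single library of the GSK-J4 and DMSO groups (edgeR, adjusted p = 0.051 to 0.19). A fit of the 3 h groups alone called more members lower at 3 h, so this trait depends on the threshold. BRIX1, an early large subunit factor, measured 135, 146 and 145 CPM after 24 h of GSK-J4, against 230, 235 and 256 CPM in DMSO (-0.76 ± 0.06, adjusted p = 8.3e-16).

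RRS1 went its own way. It measured 95.5, 95.4 and 91.9 CPM after 6 h of GSK-J4, against 149, 146 and 158 CPM in DMSO (-0.68 ± 0.07, adjusted p = 2.1e-12). After 24 h it measured 48.4, 43.6 and 36.2 CPM in GSK-J4, against 42.6, 46.3 and 43 CPM in DMSO, and the groups overlapped (-0.045 ± 0.087, adjusted p = 0.74). DMSO cells themselves had lost most of their RRS1 RNA by then. Besides RRS1, NAT10, DDX18, PPAN and NOC3L were not called at 24 h. DDX18, a helicase, had -0.03 with a 95% interval of -0.13 to 0.07. PPAN had -0.16 (-0.44 to 0.12) and NOC3L -0.37 (-0.68 to -0.06), with NOC3L at 8.3 to 13.9 CPM in the GSK-J4 and DMSO libraries. DDX18 was also uncalled at 6 h (-0.105, adjusted p = 0.16) and was the only member not called lower in GSK-J4 at any time.

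From 6 h to 24 h the effect of GSK-J4 grew in 13 genes, beside 3.04% of all tested genes more negative, and shrank in 1, RRS1, beside 2.72% less negative. The difference of effects was -0.69 ± 0.10 for WDR74 (adjusted p = 1e-06), -0.52 ± 0.09 for NOB1 (adjusted p = 3.3e-05), -0.45 ± 0.09 for BRIX1 (adjusted p = 0.00029) and 0.63 ± 0.11 for RRS1 (adjusted p = 4.7e-05). The other 10 were NCL, NPM1, DDX21, NOP56, NOLC1, WDR3, TSR1, NIP7, FTSJ3 and EBNA1BP2. None of the 5 Pol I genes was called in this difference by edgeR, and none had an unadjusted p under 0.05.

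ZnSO4 also lowered these genes, earlier and by less. After 3 h, 34 of the 54 were lower in ZnSO4 than in DMSO and none was higher, beside 4.16% of all tested genes called lower and 6.59% higher, and the median was -0.21. After 6 h, 34 were lower and UBTF was higher, beside 4.51% of all tested genes lower and 4.81% higher (median -0.22). After 24 h, 31 were lower and none higher, beside 5.58% of all tested genes called lower and 3.98% higher (median -0.23). The medians over all tested genes were 0.002, 0.007 and -0.002. After 1 h no member was called by edgeR or by DESeq2, beside 0.678% of all tested genes called by edgeR. At an unadjusted p under 0.05 (edgeR) there were 7 of the 54, beside 931 of the 14460 tested genes. The same DMSO libraries served both compounds at each time.

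At 3 h of ZnSO4 the largest fall was that of RRS1, with 114, 99.6 and 98.3 CPM, against 159, 141 and 147 CPM in DMSO (-0.53 ± 0.07, adjusted p = 5.5e-09). PPAN (-0.47 ± 0.12, adjusted p = 0.0036) and WDR3 (-0.43 ± 0.05, adjusted p = 1.6e-09) followed. The call of PPAN was lost without replicate 2 of ZnSO4 at 3 h (-0.37, adjusted p = 0.07), and its reads can be shared with an overlapping readthrough gene. Exons of RRS1, WDR74, LTV1 and NOP2 also overlap those of a coding gene on the same strand. POLR1B measured 96, 95.3 and 88.6 CPM in ZnSO4, against 121, 121 and 119 CPM in DMSO (-0.37 ± 0.06, adjusted p = 1.8e-05). By role, 3 of 5 Pol I genes, 3 of 4 multifunctional proteins, 12 of 19 small subunit genes and 15 of 21 large subunit genes were called lower, as was 1 of 5 snoRNP genes, NOLC1 (-0.14). All 5 snoRNP changes were below 0, from -0.14 to -0.06, and no difference between roles was tested. FBL measured 494, 491 and 516 CPM in ZnSO4, against 567, 538 and 529 CPM in DMSO, and was not called (-0.12 ± 0.06, adjusted p = 0.18). NPM1 was not called at any time of ZnSO4, with -0.06 at 3 h, -0.10 at 6 h and -0.115 at 24 h (adjusted p = 0.49, 0.17 and 0.1).

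At 6 h of ZnSO4, DDX10, a processome helicase, had the largest fall, with 76.3, 86.7 and 76.9 CPM, against 106, 115 and 129 CPM in DMSO (-0.55 ± 0.08, adjusted p = 2.2e-07). DDX21 measured 398, 372 and 402 CPM in ZnSO4, against 509, 538 and 558 CPM in DMSO (-0.45 ± 0.06, adjusted p = 1.7e-08), and RRP9 fell by 0.43 ± 0.09 (adjusted p = 9e-04). NCL measured 1725, 1776 and 1686 CPM in ZnSO4, against 2139, 2115 and 2210 CPM in DMSO (-0.32 ± 0.05, adjusted p = 1.6e-06). UBTF was the only member higher, with 316, 314 and 317 CPM in ZnSO4, against 301, 278 and 279 CPM in DMSO (0.14 ± 0.05, adjusted p = 0.046). The rise of UBTF was not called with RLE size factors, without the filter, with only the 6 h groups, or without any 1 of 5 of its 6 libraries, replicate 1 of DMSO being the exception. Without replicate 3 of DMSO at 6 h, 20 members were called, and without replicate 3 of ZnSO4 at 6 h, 23.

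At 24 h of ZnSO4 the largest falls were those of NOC3L (-0.49 ± 0.17, adjusted p = 0.047), WDR74 (-0.455 ± 0.065, adjusted p = 5.3e-07) and UTP20, a processome protein (-0.42 ± 0.09, adjusted p = 4.1e-04). NOC3L measured 9.76, 12.1 and 6.85 CPM in ZnSO4, against 13.9, 13.7 and 13.5 CPM in DMSO. Its call rested on few counts: it was lost without any 1 of the libraries other than replicate 2 of ZnSO4, and without replicate 3 of ZnSO4 the change was -0.31 (adjusted p = 0.33). WDR74 measured 133, 118 and 130 CPM in ZnSO4, between GSK-J4 and the 177, 165 and 180 CPM of DMSO. The 5 Pol I genes had changes of -0.235 to -0.001 at this time and none was called by edgeR. Of these 5, 3 had an unadjusted p under 0.05 (edgeR), beside 3168 of the 14460 tested genes. Of the other roles, 3 of 4 multifunctional proteins, 3 of 5 snoRNP genes, 13 of 19 small subunit genes and 12 of 21 large subunit genes fell.

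NOP56, FBL and FTSJ3 are examples of members that differed between ZnSO4 and GSK-J4 at 24 h. NOP56 measured 1036, 1007 and 1003 CPM in ZnSO4, against 1084, 1094 and 1150 CPM in DMSO, below DMSO in every library but not called (-0.13). FBL measured 555, 552 and 595 CPM in ZnSO4, against 642, 633 and 672 CPM in DMSO (-0.19 ± 0.06, adjusted p = 0.017). FTSJ3 measured 104, 106 and 97.1 CPM in ZnSO4, against 129, 132 and 126 CPM in DMSO (-0.335 ± 0.061, adjusted p = 7.8e-05). The ZnSO4 libraries of all 3 genes lay between those of GSK-J4 and DMSO without overlap. FTSJ3 was picked for its fall in these data, and how many genes show this order was not counted. At 24 h 35 of the 54 were called lower in GSK-J4 than in ZnSO4 and 19 were not called, beside 12.5% of all tested genes called lower.

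Few members showed a called difference between the times of ZnSO4. Between 3 h and 6 h the difference of effects was called for UBTF only (0.35 ± 0.07, adjusted p = 0.00051), 1 of 54, beside 0.622% of all tested genes in the positive direction and 1.56% in the negative one. UBTF measured 262, 245 and 257 CPM at 3 h of ZnSO4, against 290, 302 and 287 CPM in DMSO, so it was below DMSO at 3 h and above it at 6 h. Without the filter on low counts the difference was not called (adjusted p = 0.078). The count was 2 without replicate 3 of DMSO or replicate 1 of ZnSO4 at 3 h, and without replicate 1 or 3 of DMSO or of ZnSO4 at 6 h. Between 6 h and 24 h no member was called by edgeR or by DESeq2, beside 0.408% of all tested genes called by edgeR. At an unadjusted p under 0.05 (edgeR) there were 8 of the 54, beside 1295 of the 14460 tested genes.

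**Figure D3:**
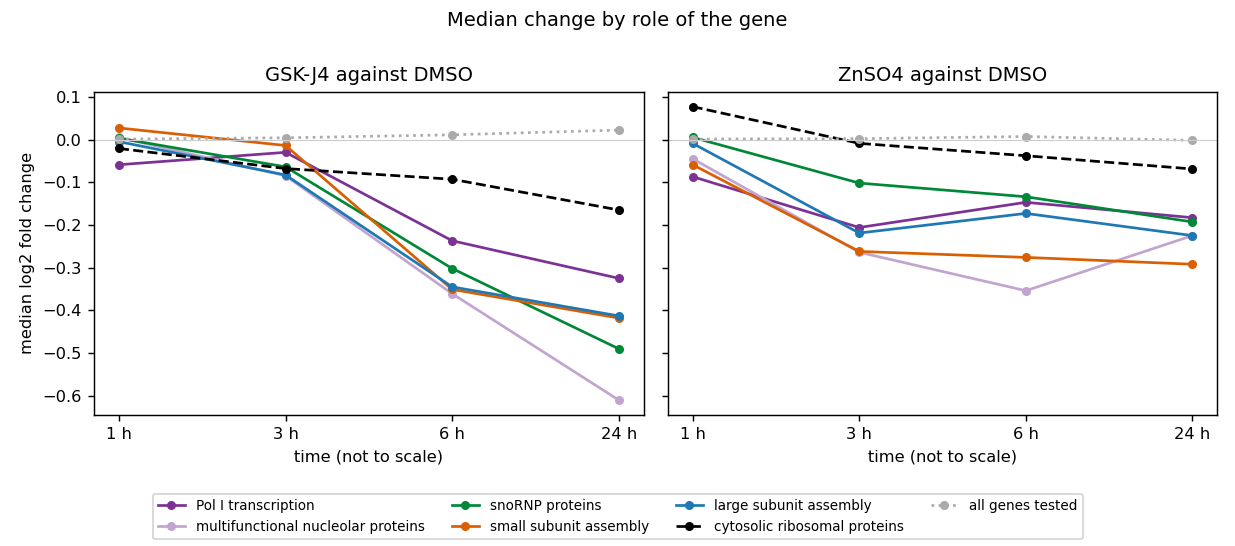
Median log2 fold change of the genes of each role (colours), of 78 cytosolic ribosomal protein genes (dashed) and of all 14460 tested genes (dotted), for GSK-J4 (left) and ZnSO4 (right) against DMSO at the 4 times. With GSK-J4 the 5 role medians reach -0.24 to -0.36 at 6 h and -0.325 to -0.61 at 24 h, while the ribosomal protein median is -0.09 and -0.165.

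The 2 compounds were also compared directly. At 3 h, 26 of the 54 genes were higher in GSK-J4 than in ZnSO4 and none was lower, beside 3.99% of all tested genes called higher and 6.12% lower, with a median of 0.18. At 6 h, 19 were lower in GSK-J4 and 2 higher, beside 9.88% and 8.53% of all tested genes (median -0.10). At 24 h, 35 were lower in GSK-J4 and none higher, beside 12.5% of all tested genes called lower and 12% higher (median -0.265). At 1 h no member was called by edgeR or DESeq2, beside 0.664% of all tested genes called by edgeR, and without replicate 1 of ZnSO4 at 1 h 1 was called. At an unadjusted p under 0.05 (edgeR) there were 6 of the 54 at 1 h, beside 1338 of the 14460 tested genes. By the medians the time courses therefore crossed: ZnSO4 was the lower of the 2 at 3 h and GSK-J4 at 24 h. The genes called at these times were only partly the same. NCL and NPM1 were called at 24 h and not at 3 h, and NOP14 and UTP20 at 3 h and not at 24 h. The change of this difference from 3 h to 24 h was not tested.

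At 3 h the largest differences were those of NOC3L (0.40 ± 0.08, adjusted p = 1.7e-04), WDR3 (0.35 ± 0.05, adjusted p = 2.9e-07) and MYBBP1A (0.35 ± 0.06, adjusted p = 1.2e-05). WDR3 measured 382, 362 and 370 CPM in GSK-J4, against 293, 293 and 286 CPM in ZnSO4. The count of 26 was 17 without replicate 3 of ZnSO4 at 3 h, and 17 without replicate 3 of GSK-J4 at 3 h. At 6 h the largest falls in GSK-J4 relative to ZnSO4 were those of NOP16 (-0.49 ± 0.08, adjusted p = 4.5e-06), RRS1 (-0.45 ± 0.07, adjusted p = 9.5e-07) and IMP3, a U3 snoRNP-associated protein (-0.43 ± 0.07, adjusted p = 3.1e-06). IMP3 measured 89.7, 90.1 and 88.6 CPM in GSK-J4, against 121, 122 and 120 CPM in ZnSO4.

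The 2 genes higher in GSK-J4 at 6 h were both helicases. DDX21 measured 456, 468 and 471 CPM in GSK-J4, against 398, 372 and 402 CPM in ZnSO4 (0.25 ± 0.06, adjusted p = 8.2e-04). DDX10 measured 91.7, 96.8 and 88.3 CPM in GSK-J4, against 76.3, 86.7 and 76.9 CPM in ZnSO4 (0.21 ± 0.08, adjusted p = 0.048). The call of DDX10 was lost without the filter and without any 1 of replicates 1 and 3 of ZnSO4 and 1 and 2 of GSK-J4, with adjusted p of 0.057 to 0.19. Without replicate 1 of GSK-J4 at 6 h, 13 members were called in place of 21, and without the filter 11.

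At 24 h the largest falls in GSK-J4 relative to ZnSO4 were those of UTP14A, NCL and NPM1. UTP14A measured 47.8, 55.8 and 53.9 CPM in GSK-J4, against 75.3, 68.6 and 88.6 CPM in ZnSO4 (-0.56 ± 0.08, adjusted p = 2.2e-07). NCL measured 1924, 1988 and 1899 CPM in GSK-J4, against 2830, 2809 and 2684 CPM in ZnSO4 (-0.52 ± 0.05, adjusted p = 1.8e-13). NPM1 measured 1677, 1680 and 1684 CPM in GSK-J4, against 2427, 2365 and 2298 CPM in ZnSO4 (-0.49 ± 0.05, adjusted p = 1.9e-13). All 4 multifunctional proteins, all 5 snoRNP genes and 4 of 5 Pol I genes were lower in GSK-J4, against 9 of 19 small subunit genes and 13 of 21 large subunit genes.

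Of the 19 genes not called at 24 h, those nearest to equal in the 2 compounds were POLR1A, BYSL and NAT10. Their differences had 95% intervals of -0.21 to 0.18, -0.235 to 0.18 and -0.12 to 0.18, so changes of that size in either direction remain possible. PPAN, RRS1, NOC3L and DDX18 had positive differences that were not called, the largest being 0.235 for PPAN (95% interval -0.09 to 0.56).

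**Figure D4:**
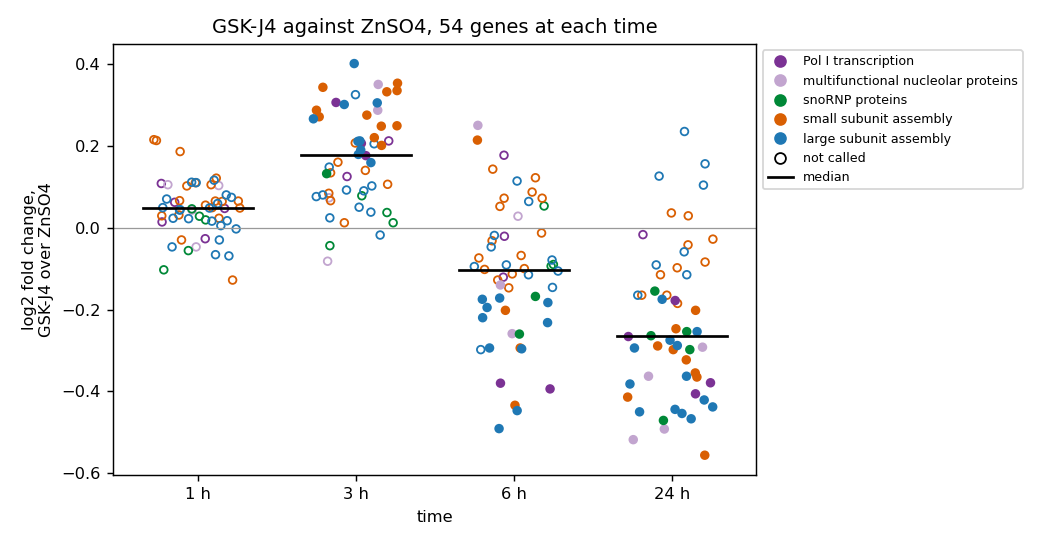
Log2 fold change of GSK-J4 over ZnSO4 for each of the 54 genes (points, coloured by role, filled where adjusted p is under 0.05) at 1, 3, 6 and 24 h, with the median as a line; points are spread sideways for legibility only. The medians are 0.05, 0.18, -0.10 and -0.265.

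The control cells moved too. No member differed between DMSO and T0 at 1, 3 or 6 h by edgeR, with 10, 11 and 7 at an unadjusted p under 0.05, beside 0.0346%, 0.0968% and 0.0138% of all tested genes called. DESeq2 called 0, 2 and 0 members at these times. Without replicate 1 of T0, edgeR called 1, 6 and 4, without replicate 2 of T0 1 at each time, and without replicate 3 of DMSO at 6 h 2 at 6 h. The T0 libraries differed among themselves more than those of any other group, NCL measuring 2088, 2137 and 2630 CPM in them.

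After 24 h in DMSO, 20 of the 54 genes were lower than at T0 and 24 were higher, beside 32.7% and 30.5% of all tested genes; the share of members called lower was near that of all genes, and the share called higher was larger. With library totals in place of TMM factors the split was 28 lower and 14 higher. Of the 14460 tested genes 6519 were then called lower and 2769 higher, with a median of -0.24 over all of them. The directions of FBL, IMP4, EBNA1BP2 and DDX18 flipped under that scaling, and the values below are those with TMM factors.

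NOC3L, an early large subunit factor, had the largest fall of any member in any comparison, with 13.9, 13.7 and 13.5 CPM in DMSO at 24 h, against 69, 74.1 and 77.1 CPM at T0 (-2.42 ± 0.105, adjusted p = 1.3e-29). That is 0.187 times the T0 level. RRS1 measured 42.6, 46.3 and 43 CPM in DMSO at 24 h, against 148, 158 and 158 CPM at T0 (-1.81 ± 0.07, adjusted p = 1.9e-31). BYSL, the small subunit factor bystin, measured 36.8, 47.7 and 44.6 CPM, against 90.9, 94.9 and 98.4 CPM at T0 (-1.135 ± 0.076, adjusted p = 1.1e-20). In all 3 genes every 24 h library of GSK-J4 and of ZnSO4 also lay below every T0 library, NOC3L measuring 12.4, 11.1 and 8.3 CPM in GSK-J4 and 9.76, 12.1 and 6.85 CPM in ZnSO4.

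In the other direction, WDR74 measured 177, 165 and 180 CPM in DMSO at 24 h, against 74.6, 77.9 and 86.9 CPM at T0 (1.13 ± 0.07, adjusted p = 1.6e-23). WDR43, a processome protein, measured 330, 336 and 341 CPM, against 170, 194 and 164 CPM at T0 (0.93 ± 0.06, adjusted p = 1.1e-22). DDX21 rose by 0.685 ± 0.055 (adjusted p = 3.8e-17), NPM1 by 0.50 ± 0.05 (adjusted p = 3.7e-15) and NCL by 0.48 ± 0.05 (adjusted p = 1e-13). By role, all 5 snoRNP genes, with FBL reversed under library totals, and 3 of 4 multifunctional proteins were higher, while 10 of 19 small subunit genes were lower and 5 higher, and 8 of 21 large subunit genes were lower and 10 higher. Of the Pol I genes POLR1A and POLR1B were lower (-0.50 and -0.705) and RRN3 was higher (0.64). The difference between the roles was not tested.

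**Figure D5:**
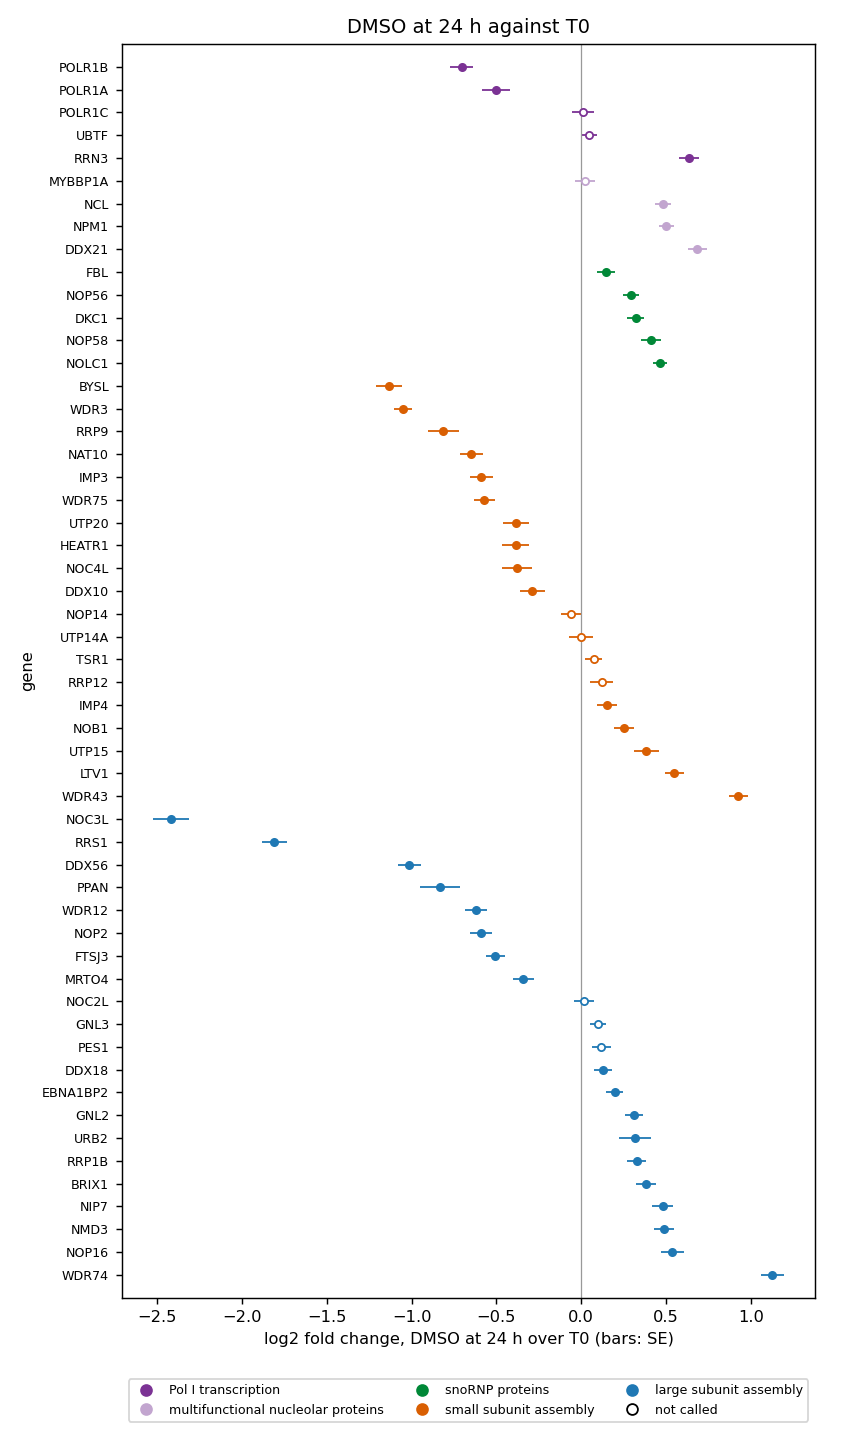
Log2 fold change of DMSO at 24 h over T0 for each of the 54 genes (rows, by role, then by value), with the standard error as a bar and open points where adjusted p is 0.05 or more. Values run from -2.42 for NOC3L to 1.13 for WDR74, with all 5 snoRNP genes to the right of 0.

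The order of the 13 groups differed between genes. By group mean, 24 of the 54 genes were lowest in GSK-J4 at 24 h, 20 in GSK-J4 at 6 h, 5 in ZnSO4 at 6 h, 4 in ZnSO4 at 24 h and 1, WDR74, in ZnSO4 at 3 h. Neither T0 nor any DMSO group was the lowest for any gene, by group means and without a test. DMSO at 24 h was the highest group for 26 genes. The ratio of the highest to the lowest group mean ran from 1.28 in DDX18 to 8.07 in NOC3L. Summed over the 54 genes, the level was 11743 ± 112 CPM in GSK-J4 at 6 h and 12785 ± 309 CPM in ZnSO4, against 14845 ± 471 CPM in DMSO (SD, n = 3 each). At 24 h the sum was 12268 ± 133 CPM in GSK-J4 and 15588 ± 384 CPM in ZnSO4, against 17742 ± 103 CPM in DMSO, beside 15210 ± 716 CPM at T0. NCL and NPM1 weigh most in this sum. In CPM with TMM factors the sum was thus higher in GSK-J4 at 24 h than at 6 h by group means, although its distance to DMSO was larger. That order depends on the scaling. As a share of unscaled library totals, the 54 genes held 1.125% to 1.163% in GSK-J4 at 24 h, below 1.222% to 1.259% at 6 h. These shares were 1.552% to 1.56% in DMSO at 24 h, inside the range of 1.483% to 1.634% at T0.

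Related genes outside the 54 were described in the same way. Of 94 other ribosome biogenesis genes, 56 were lower and 1 was higher after 6 h of GSK-J4 and 73 were lower after 24 h (medians -0.24 and -0.33). With ZnSO4, 33, 32 and 28 of them were lower at 3, 6 and 24 h, and 1 was higher, at 3 h. Of 78 tested cytosolic ribosomal protein genes, 6 were lower after 6 h of GSK-J4, and 49 were lower and 1 higher after 24 h (medians -0.09 and -0.165). With ZnSO4, 1 of these was lower at 3 h and none higher, 1 was higher at 6 h and none lower, and 12 were lower and 1 higher at 24 h. The shares of all tested genes called lower were 10.5% and 16.8% at 6 and 24 h of GSK-J4 and 4.16%, 4.51% and 5.58% at 3, 6 and 24 h of ZnSO4. After 24 h in DMSO, 73 of the ribosomal protein genes were higher than at T0 and none lower (median 0.32), beside 30.5% of all tested genes called higher.

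MYC is a regulator of many of these genes. It measured 561, 545 and 526 CPM after 6 h of GSK-J4, against 849, 834 and 1159 CPM in DMSO (-0.80 ± 0.09, adjusted p = 1.3e-10), the third DMSO library lying well above the others. At 24 h MYC measured 893, 821 and 828 CPM in GSK-J4, against 1332, 1297 and 1411 CPM in DMSO (-0.67 ± 0.09, adjusted p = 9.1e-09). With ZnSO4 the changes of MYC were -0.28, -0.38 and -0.46 at 3, 6 and 24 h (adjusted p = 0.029, 0.0024 and 1.8e-04). Whether MYC bears on the members was not tested. Members with CACGTG in the promoter window (19) and members with an entry but without the motif (28) are given side by side, with no test of the difference. At 6 h of GSK-J4, 19 of 19 with the motif and 25 of 28 without it were called lower (medians -0.31 and -0.36). At 24 h of GSK-J4 the counts were 17 of 19 and 27 of 28 (medians -0.45 and -0.55). For ZnSO4 they were 13 of 19 and 17 of 28 at 3 h (medians -0.22 and -0.21), 16 of 19 and 13 of 28 at 6 h (medians -0.23 and -0.17), and 11 of 19 and 17 of 28 at 24 h (medians -0.22 and -0.23). The median difference between the effects of GSK-J4 at 6 h and 3 h was -0.33 with the motif and -0.26 without it. Neither set had the more negative median in all of these comparisons.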

How the data were processed

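RNA of 39 JJN3 libraries was sequenced. HISAT2 2.1.0 and the build hg19 are what the submitters' processing notes name for the authors' alignment. How reads were counted (tool, annotation, strand) is not given in the sources used. The deposited values are raw counts per gene, used as they stand. Symbols came from a name table that matched 51996 of the 57773 identifiers, and the reference annotation (another build) served for overlaps and pseudogene names only. The protocol in the labels leaves out 1 h, and the sample labels were followed. Groups came from the treatment and time labels, and replicate numbers follow accession order.

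With R 4.3.3 and edgeR 4.0.16, all 39 libraries were fitted together by the quasi-likelihood method (TMM factors and a coefficient for each group), after filterByExpr at its minimum count of 10 had left 14460 genes. Adjusted p-values are Benjamini-Hochberg values over all genes tested in a comparison, and a gene was called at adjusted p under 0.05. Fold changes are on the log2 scale, and their SE is the absolute change divided by the root of the F statistic. Levels are CPM with TMM scaling. The script was tested on simulated data. No 2 libraries agreed within counting noise (chi-squared per gene 1.21 to 7.32 over 39 replicate pairs).

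Named per comparison were the 3 largest falls and the 3 largest rises among called members, and members against the majority. By rule, values per library are given for NCL, NPM1, FBL, NOP56, POLR1B and members named in at least 2 comparisons with DMSO (RRS1, FTSJ3 and WDR74). Those of UTP14A, NOP16, BRIX1, DDX10, DDX21, UBTF, NOC3L, WDR3, IMP3, BYSL, WDR43 and MYC were added after their values had been seen, as were other members named. The members and all lists were chosen with earlier results of these data known. Of 97 other ribosome biogenesis genes 94 matched (not BOP1, DDX52 and NOL12). Alternatives were DESeq2 1.42.0, edgeR with RLE factors, edgeR with library totals alone, no filter on low counts, a fit of only the groups compared, and leaving out each library.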

Additional observations from a re-analysis of the deposited data

Results flagged for a closer look

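The effect of GSK-J4 differed between times by a test of the difference itself (edgeR, adjusted p under 0.05). From 3 h to 6 h it differed in 26 members, by -0.496 for NOP16, -0.457 for UTP14A and -0.426 for NOC4L on the log2 scale, and the count was 17 without replicate 3 of DMSO at 6 h. From 6 h to 24 h it differed in 14, by -0.69 for WDR74, -0.52 for NOB1, -0.45 for BRIX1 and 0.634 for RRS1. For ZnSO4 the effect differed from 3 h to 6 h in 1 member, UBTF, by 0.349. RRS1 RNA was low in every group at 24 h, DMSO included, at 33.6 to 48.4 CPM.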

How the results depend on the processing

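Called members were 49 at 6 h and 49 at 24 h of GSK-J4, and 45 to 50 under every alternative fit of all libraries or of the groups compared. Of the 49 calls, 41 at 6 h and 45 at 24 h held under every alternative, each left-out library included. Of the 34, 35 and 31 calls of ZnSO4 at 3, 6 and 24 h, 21, 17 and 17 did. Library totals alone gave 1 call for GSK-J4 at 3 h and 4 for the ZnSO4 effect from 3 h to 6 h. Without the filter on low counts these were 0 and 0, GSK-J4 against ZnSO4 at 6 h had 11 and DMSO against T0 at 6 h had 1. DESeq2 gave 2 for DMSO against T0 at 3 h and 3 for that ZnSO4 effect, and only the groups compared gave 12 for GSK-J4 at 3 h and 2 for that effect. In that fit of GSK-J4 at 3 h, 577 of all 13230 tested genes were called lower and 495 higher. Without TMM factors, 4 rises in DMSO at 24 h against T0 reversed, with -0.076 for FBL, -0.071 for IMP4, -0.094 for DDX18 and -0.026 for EBNA1BP2. That scaling moved the median of all genes to -0.239 there and to 0.114 for GSK-J4 against DMSO at 24 h. The cause was not tested.

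Leaving out 1 library gave 0 to 1 call for GSK-J4 at 3 h, 20 to 32 for ZnSO4 at 6 h, 0 to 1 for GSK-J4 against ZnSO4 at 1 h, 17 to 22 at 3 h and 13 to 17 at 6 h. It gave 0 to 1, 0 to 6 and 0 to 4 for DMSO against T0 at 1, 3 and 6 h, 17 to 25 for the GSK-J4 effect from 3 h to 6 h, and 1 to 2 for the ZnSO4 effect from 3 h to 6 h. The GSK-J4 calls ranged from 44 to 48 at 6 h and from 47 to 49 at 24 h. No paired analysis was possible because the labels give running sample numbers, none shared between groups. Intervals cover counting error and the spread of these libraries only.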
